A study of Mus musculus with 6 samples.

Results

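The genes described here encode the replicative MCM helicase of the mouse heart and the factors that load and start it. They are 10 genes chosen by name, with earlier results of these data known, out of 30619 rows in the count table. All 10 passed the filter on low counts. They are Mcm2, Mcm3, Mcm4, Mcm5, Mcm6 and Mcm7, which encode the ring-shaped helicase, Cdt1 and Cdc6, which encode its loaders, and Mcm10 and Cdc45, which encode proteins that turn the loaded ring into a working helicase. Their messenger RNA was measured by poly(A) RNA-seq of hearts at stage E12.5, listed as mixed cardiac cells, in 3 libraries labelled as a conditional knockout of Trim28 (CKO) and 3 control libraries labelled wild type. TRIM28 is a co-repressor that zinc finger proteins bring to DNA. The genotype field of the CKO samples speaks of a knockdown where the titles read CKO. The sources used here do not give the Cre driver, the deleted exons, any floxed or Cre allele in the controls or the number of hearts in a library. They also do not say whether each library is a different animal. Sex-linked expression, given below, differed within each group, so the libraries of a group are not all repeats of a single sample. Some libraries had the signal of both sexes and may thus hold RNA of several hearts. The p-values cover library-to-library spread, part of which may be technical.

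Before a cell copies its DNA, origins of replication are licensed. The origin recognition complex, CDC6 and CDT1 place rings of MCM2 to MCM7 around the DNA in G1, in an inactive form, and geminin blocks further loading by binding CDT1 once S phase has begun. Kinases, CDC45, the GINS complex and MCM10 then turn the rings into moving helicases that open the strands ahead of the polymerases. Most of these genes are targets of E2F transcription factors and are transcribed in cycling cells and little in resting ones. The embryonic heart grows by division of its muscle cells, with more division in the compact wall than in the trabeculae.

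The 6 libraries held between 34400841 and 39763233 counts, and the 10 genes had between 988 and 8412 counts each in every library. Trim28 had 172, 314 and 165 CPM (counts scaled to the same effective library size) in the libraries labelled CKO replicates 1, 2 and 3, against 305, 391 and 443 CPM in control replicates 1, 2 and 3. The groups overlapped, since the library labelled CKO replicate 2 lay above the lowest control, and edgeR's quasi-likelihood test did not call the gene (log2 fold change -0.81, SE 0.34, adjusted p = 0.349). Trim28 was called lower by limma-voom (log2 fold change -0.86, adjusted p = 0.0165) and by the edgeR test without the robust option (-0.81, SE 0.19, adjusted p = 0.0308), and not by DESeq2 (-0.81, adjusted p = 0.167). Its log2 fold change was negative in all of these fits. A ribosomal RNA row took 0.563% to 0.79% of the counts in CKO libraries and 0.126% to 0.522% in controls, without overlap between the groups. Summed Y-linked expression of 4 genes, without scaling factors, was 99.4, 208 and 208 CPM in CKO replicates 1, 2 and 3. In control replicates 1, 2 and 3 it was 80.7, 0.026 and 124 CPM. The female-expressed gene Xist had 15232, 7 and 4 counts in CKO replicates 1, 2 and 3. It had 24633, 36330 and 17569 counts in control replicates 1, 2 and 3. Sex-linked expression was thus not balanced between the groups. CKO replicate 1 and control replicates 1 and 3 had both Xist and Y-linked expression, the pattern of RNA from both sexes. CKO replicates 2 and 3 had almost no Xist, and control replicate 2 had almost no Y-linked expression. Each group thus mixed libraries of both kinds, and the SDs and the Y-linked covariate include this difference. Heart muscle markers were abundant in all libraries (6 markers summed to 17167 to 18455 CPM in CKO and 16673 to 17643 CPM in controls), and none of 5 liver and lung markers passed the filter on low counts.

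Because E2F factors are known regulators of these genes, promoters with and without exact matches to the E2F octamers named below are shown for 3 of them. Other forms of the motif were not searched. Each is given as the 160 bases before the start site that RefSeq gives on the GRCm38.p6 build, read in the direction of the gene. Capitals mark matches to the E2F octamers TTTGGCGC, TTTCCCGC, TTTCGCGC or TTTGCCGC on either strand. Mcm6 (chr1:128359706-128359865, minus strand) holds 3 matches, of which 2 overlap, Mcm5 (chr8:75109349-75109508, plus strand) holds 2 that overlap, and Mcm2 (chr6:88898781-88898940, minus strand) holds none.
Mcm6: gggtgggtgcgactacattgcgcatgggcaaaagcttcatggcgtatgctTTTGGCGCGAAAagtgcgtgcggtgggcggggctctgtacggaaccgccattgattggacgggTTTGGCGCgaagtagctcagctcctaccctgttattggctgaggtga
Mcm5: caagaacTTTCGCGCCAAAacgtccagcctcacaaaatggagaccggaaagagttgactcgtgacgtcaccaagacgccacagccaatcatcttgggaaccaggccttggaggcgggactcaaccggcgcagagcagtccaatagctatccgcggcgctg
Mcm2: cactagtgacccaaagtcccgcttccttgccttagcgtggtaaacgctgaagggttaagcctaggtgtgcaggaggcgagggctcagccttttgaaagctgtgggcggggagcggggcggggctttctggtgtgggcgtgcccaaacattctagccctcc

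RefSeq windows of 250 bases before to 50 bases after the start were found for 9 of the 10 genes; Mcm4 had none. An E2F octamer stood in the window of 6 of the 9, namely Mcm3, Mcm5, Mcm6, Mcm7, Cdt1 and Cdc6. In Mcm3 and Cdt1 the matches lay after the start only. The same octamers occurred in 2.26% of all 32851 windows. The pentamer CCAAT, searched on both strands, stood in 7 of the 9 and in 37.4% of all windows, and TTTGAA stood in 2 of the 9 and in 17.9% of all windows. The windows of Cdc6 and Mcm7 begin at starts 350 bases or more inside the gene as GENCODE M21 places it, so the first start of these genes was not searched. These matches describe letters in a window and do not show binding.

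All 10 genes had lower mean levels in CKO hearts, by modest amounts. The edgeR quasi-likelihood test called Cdc6, Mcm4 and Mcm6 lower at an adjusted p under 0.05 and called none of the 10 higher, while 1.14% of all 17557 tested genes were called lower, 3.08% higher and 4.22% in either direction. At an unadjusted p under 0.05, 7 of the 10 were lower, against 7.53% of all tested genes. DESeq2 called 5 of the 10 lower, against 1.93% of all tested genes, and limma-voom called 3, against 1.04%. The estimated falls ran from 6.38% for Mcm3 to 18.5% for Cdc6. The median log2 fold change of the 10 genes was -0.17, against 0.00 over all tested genes, and 49.1% of all tested genes had a negative value. Every CKO library lay below every control library in 6 of the 10 genes, and in 10.6% of all tested genes. The 10 genes were chosen with earlier results of these data known, so these shares are descriptions. In whole hearts, fewer cycling cells and less of these transcripts per cell cannot be told apart.

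**Figure D1:**
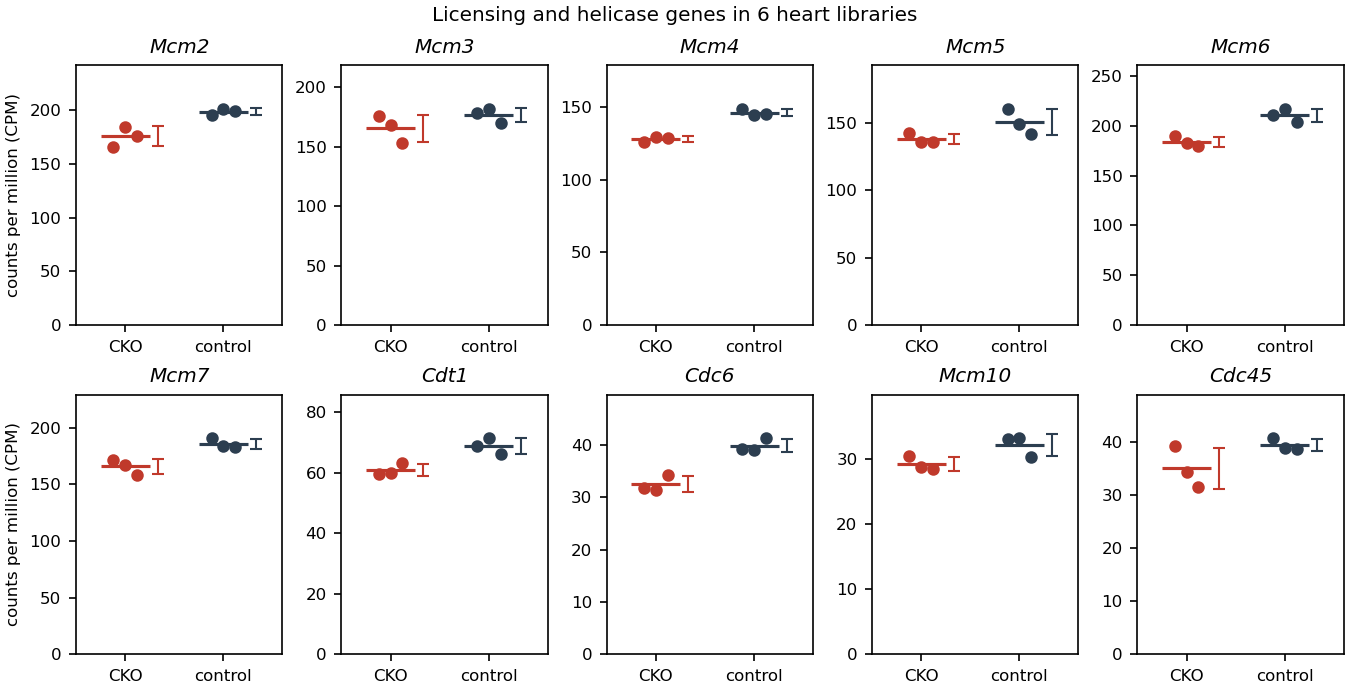
Level of each of the 10 genes in CPM (vertical axis, from 0) in the CKO and control libraries; points are libraries, horizontal bars are means and the brackets beside them are SDs (n = 3 each). In Mcm2, Mcm4, Mcm6, Mcm7, Cdt1 and Cdc6 all CKO points lie below all control points, and in the other 4 genes the groups overlap.

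Among the helicase subunits, Mcm4 and Mcm6 were called. MCM4, MCM6 and MCM7 form a stable core of the ring, and the tail of MCM4 is a substrate of the kinase that triggers firing. Mcm4 (ENSMUSG00000022673.5, mm10 chromosome 16, 15623897 to 15637400, minus strand) was measured at 126, 130 and 129 CPM in CKO replicates 1, 2 and 3, against 149, 145 and 145 CPM in control replicates 1, 2 and 3. The 3 CKO libraries lay close together and well below the controls, with means of 128 ± 2.07 CPM in CKO and 146 ± 2.41 CPM in controls (SD, n = 3 each). This gave a log2 fold change of -0.19 (SE 0.05, edgeR adjusted p = 0.0343).

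Mcm6 (ENSMUSG00000026355.11, mm10 chromosome 1, 128331590 to 128359664, minus strand) had 190, 183 and 180 CPM in CKO replicates 1, 2 and 3, against 211, 218 and 204 CPM in control replicates 1, 2 and 3. The highest CKO library lay below the lowest control. The log2 fold change was -0.20 (SE 0.05, edgeR adjusted p = 0.0376), with means of 184 ± 4.99 CPM in CKO and 211 ± 6.56 CPM in controls (SD, n = 3 each).

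The other 4 subunits did not pass the test. Mcm7 (chromosome 5, 138164583 to 138172422, minus strand) had 172, 167 and 158 CPM in CKO replicates 1, 2 and 3, against 191, 183 and 183 CPM in control replicates 1, 2 and 3. The groups did not overlap, and the log2 fold change was -0.16 (SE 0.05, edgeR adjusted p = 0.0883). Mcm2 (chromosome 6, 88883474 to 88898780, minus strand), whose product also binds histones at the fork, had 166, 185 and 176 CPM in CKO replicates 1, 2 and 3, against 196, 202 and 199 CPM in control replicates 1, 2 and 3. Its CKO libraries were spread more widely than its controls but stayed below them (log2 fold change -0.18, SE 0.05, edgeR adjusted p = 0.07).

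MCM5 forms with MCM2 the gate through which DNA enters the ring, and MCM3 sits next to MCM5. Mcm5 (chromosome 8, 75109569 to 75128439, plus strand) had 142, 136 and 136 CPM in CKO replicates 1, 2 and 3, against 161, 150 and 142 CPM in control replicates 1, 2 and 3. Control replicate 3 lay just below CKO replicate 1, so the groups overlapped (log2 fold change -0.13, SE 0.06, edgeR adjusted p = 0.241). Mcm3 (chromosome 1, 20802968 to 20820312, minus strand) had 176, 168 and 153 CPM in CKO replicates 1, 2 and 3, against 178, 182 and 170 CPM in control replicates 1, 2 and 3. It had the smallest log2 fold change of the 10 genes, -0.10 (SE 0.06, edgeR adjusted p = 0.432), and CKO replicate 1 lay within the control range.

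Summed over Mcm2 to Mcm7, the level was 971, 968 and 933 CPM in CKO replicates 1, 2 and 3, against 1086, 1079 and 1044 CPM in control replicates 1, 2 and 3. The sums did not overlap, and they averaged 958 ± 21.4 CPM in CKO and 1069 ± 22.6 CPM in controls (SD, n = 3 each).

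Of the loaders, Cdc6 was called. CDC6 is an ATPase that joins the origin recognition complex and recruits the ring. Cdc6 (ENSMUSG00000017499.15, mm10 chromosome 11, 98907801 to 98923940, plus strand) had 31.8, 31.4 and 34.3 CPM in CKO replicates 1, 2 and 3, against 39.2, 39.1 and 41.4 CPM in control replicates 1, 2 and 3. The groups stood apart, with means of 32.5 ± 1.57 CPM in CKO and 39.9 ± 1.29 CPM in controls (SD, n = 3 each). Its log2 fold change of -0.29 was the lowest of the 10 (SE 0.07, edgeR adjusted p = 0.0304).

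Cdt1 (chromosome 8, 122568015 to 122573554, plus strand), whose product escorts the MCM ring to the origin, had 59.4, 59.8 and 63.2 CPM in CKO replicates 1, 2 and 3, against 68.7, 71.5 and 66 CPM in control replicates 1, 2 and 3. The groups did not overlap, but the gene was not called (log2 fold change -0.18, SE 0.06, edgeR adjusted p = 0.109). The gene of its inhibitor geminin, Gmnn, had 48.3, 38.8 and 37 CPM in CKO replicates 1, 2 and 3, against 43.1, 40.3 and 42.6 CPM in control replicates 1, 2 and 3, with CKO libraries both above and below the controls (log2 fold change -0.02, SE 0.09, edgeR adjusted p = 0.944). The log2 ratio of Cdt1 to Gmnn averaged 0.56 ± 0.24 in CKO and 0.71 ± 0.10 in controls (SD, n = 3 each). It overlapped between the groups (exact permutation test, two-sided, p = 0.4).

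Neither activation gene was called. CDC45 is a subunit of the moving helicase, and MCM10 is needed for the strands to open. Cdc45 (chromosome 16, 18780447 to 18811987, minus strand) had 39.1, 34.3 and 31.5 CPM in CKO replicates 1, 2 and 3, against 40.7, 38.8 and 38.7 CPM in control replicates 1, 2 and 3. CKO replicate 1 lay inside the control range and the other CKO libraries lay below it (log2 fold change -0.17, SE 0.08, edgeR adjusted p = 0.291). Mcm10 (chromosome 2, 4989714 to 5012791, minus strand) had 30.4, 28.7 and 28.5 CPM in CKO replicates 1, 2 and 3, against 32.9, 33.2 and 30.2 CPM in control replicates 1, 2 and 3. Its groups overlapped by CKO replicate 1 and control replicate 3 alone (log2 fold change -0.14, SE 0.08, edgeR adjusted p = 0.406).

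The direction of the 10 genes held across the alternative settings, and the calls did not. All 10 had a negative log2 fold change, between -0.34 and -0.04, in each of the 17 settings that estimate it anew, and the other 2 settings (a stricter threshold and no robust option) keep the reported values. The settings share the same libraries, so they are not independent tests of the direction. Without the library labelled CKO replicate 2, whose Trim28 level lay within the control range, 5 of the 10 were called lower, Mcm2 and Mcm7 beside the 3 of the reported fit, while the calls lower over all genes numbered 569, against 201 with all libraries. Without CKO replicate 1, 2 were called (Mcm6 and Mcm7) of 154 over all genes. Without CKO replicate 3 or any 1 of the controls none was called (adjusted p of Cdc6 up to 0.136), of 41 to 67 over all genes. The members' calls thus went up and down with the number of calls over all genes. With the log2 share of the ribosomal RNA row as a covariate the median log2 fold change was -0.23 and none was called (adjusted p of Cdc6, Mcm4 and Mcm6 from 0.418 to 0.634; 3 genes over the whole table were called lower), and with Y-linked expression as a covariate it was -0.17 and none was called (adjusted p from 0.0883 to 0.254; 45 over the whole table).

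**Figure D2:**
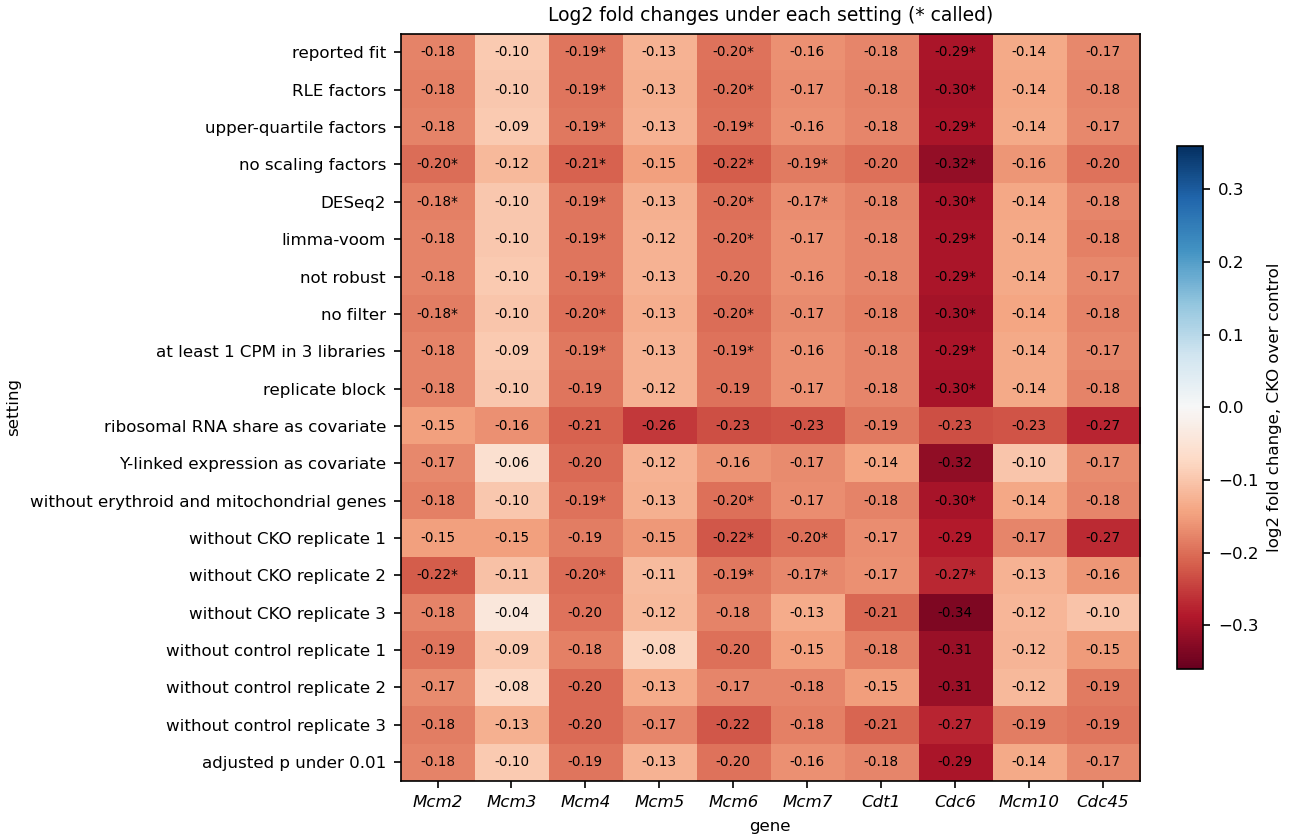
Log2 fold change, CKO over control, of each of the 10 genes (columns) under the reported fit and 19 alternative settings (rows), with colour giving the value and a star marking a call. Every cell is negative, from -0.34 to -0.04, and Mcm3, Mcm5, Mcm10, Cdt1 and Cdc45 carry no star in any row.

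Compared per length, the helicase genes stood above the other genes. In RPKM (CPM per kilobase of merged exons), the order in CKO was Mcm3 (44.1 ± 3.04), Mcm6 (39.5 ± 1.07), Mcm7 (37.5 ± 1.54), Mcm4 (35.7 ± 0.577), Mcm5 (34.6 ± 0.91), Mcm2 (25.2 ± 1.34), Cdt1 (19.4 ± 0.664), Cdc45 (9.97 ± 1.1), Cdc6 (6.22 ± 0.301) and Mcm10 (3.8 ± 0.139 RPKM, SD, n = 3). The order was the same in controls, where Mcm3 was at 47.1 ± 1.64 RPKM, Mcm6 at 45.2 ± 1.41 RPKM, Cdt1 at 21.9 ± 0.874 RPKM and Mcm10 at 4.18 ± 0.215 RPKM (SD, n = 3). In CKO the library ranges overlapped between neighbours from Mcm6 to Mcm5, and in controls between Mcm3 and Mcm6 and between Mcm7 and Mcm4. Within each library the highest of the 6 subunit genes was at 1.58 to 1.96 times the lowest.

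The order within the ring depends on the length used. Divided by the length of the transcript with the longest coding part, a choice made after the data were seen, Mcm2 was at 52.1 RPKM in CKO and 58.9 RPKM in controls, and Mcm6 stood first with 63.4 RPKM in CKO and 72.5 RPKM in controls. With either length all 6 subunit genes stood above Cdt1, and Cdt1, Cdc45, Cdc6 and Mcm10 followed in this order without overlap between neighbours.

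**Figure D3:**
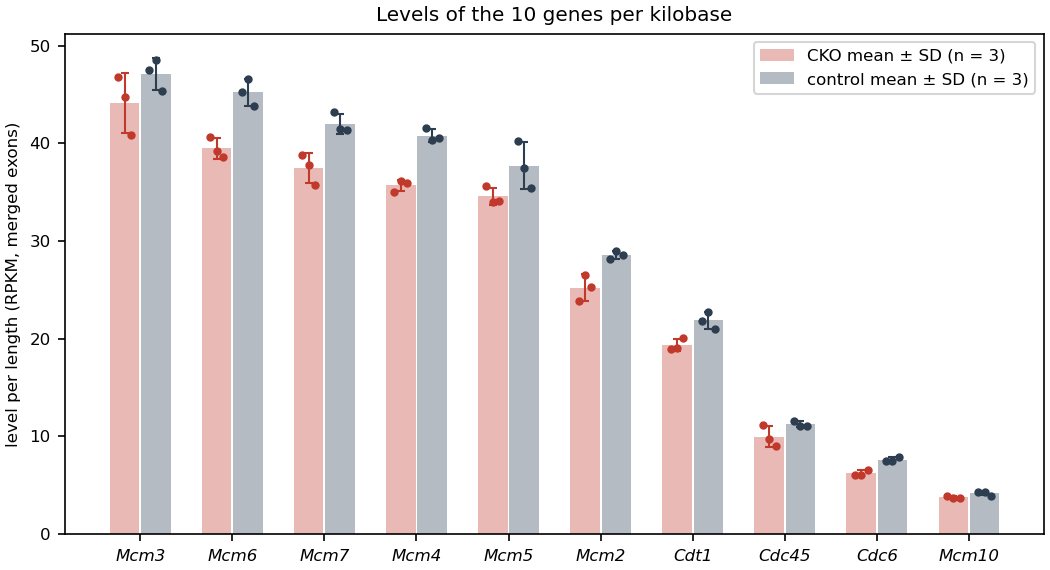
Level per length (RPKM over merged exons, linear axis from 0) of the 10 genes in CKO and control libraries; bars are means, brackets SDs and points libraries (n = 3 each). The 6 helicase genes lie between 25.2 and 44.1 RPKM in CKO on average, and Mcm10 is lowest at 3.8 RPKM.

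A few of the genes overlap a gene on the other strand or start close to one. On the same strand, Cdt1 lies within the protein-coding gene Gm20388 without shared exon bases. The microRNA genes Mir25, Mir93 and Mir106b lie within Mcm7 on its strand. None of these same-strand genes had a row in the counts. Mcm4 and Prkdc, the gene of a DNA repair kinase, start 466 bases apart. Prkdc had 30, 33.9 and 39 CPM in CKO replicates 1, 2 and 3, against 40.2, 38.6 and 36.9 CPM in control replicates 1, 2 and 3, with overlap between the groups (log2 fold change -0.17, SE 0.09, edgeR adjusted p = 0.339). The log2 ratio of Mcm4 to Prkdc was 1.91 ± 0.17 in CKO and 1.92 ± 0.05 in controls (SD, n = 3 each, exact permutation test, two-sided, p = 1), with CKO libraries on both sides of the controls.

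Mcm7 overlaps Ap4m1, an adaptor protein gene, at its start by 421 bases, of which 321 are exonic in both, and Cops6, a COP9 signalosome gene, at its end by 64 bases. Ap4m1 averaged 20.5 ± 0.467 CPM in CKO and 19.3 ± 1.01 CPM in controls (SD, n = 3 each; log2 fold change 0.08, edgeR adjusted p = 0.736). Cops6 averaged 129 ± 8 CPM in CKO and 126 ± 3.19 CPM in controls (SD, n = 3 each; log2 fold change 0.03, edgeR adjusted p = 0.847). The log2 ratio of Mcm7 to Ap4m1 was 3.09, 2.99 and 2.97 in CKO replicates 1, 2 and 3, against 3.39, 3.18 and 3.22 in control replicates 1, 2 and 3. The groups did not overlap, and the difference of -0.25 gave p = 0.1 in a two-sided exact permutation test, the smallest that 3 against 3 libraries allow.

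Cdc45 and Ufd1, which encodes a cofactor of the p97 segregase, overlap by 209 bases at their starts. Ufd1 averaged 52.7 ± 1.97 CPM in CKO and 52.3 ± 1.13 CPM in controls (SD, n = 3 each; log2 fold change 0.01, edgeR adjusted p = 0.967). The log2 ratios of Cdc45 to Ufd1 and of Mcm7 to Cops6 were lower in CKO by 0.19 and 0.20 on average with no overlap between the groups, each at the same smallest p of 0.1. Adjusted over the 5 ratios tested, the lowest p was 0.167. With 3 libraries in each group no ratio could reach a p under 0.05 in this test. Ap4m1, Cops6 and Ufd1 differed little between the groups, so these ratios mostly restate the lower levels of Mcm7 and Cdc45. Both Mcm7 ratios share the same Mcm7 values. How often ratios of other gene pairs stood apart was not computed. The sources used here do not state whether counting used strand, so reads in the overlaps cannot be assigned to 1 gene.

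**Figure D4:**
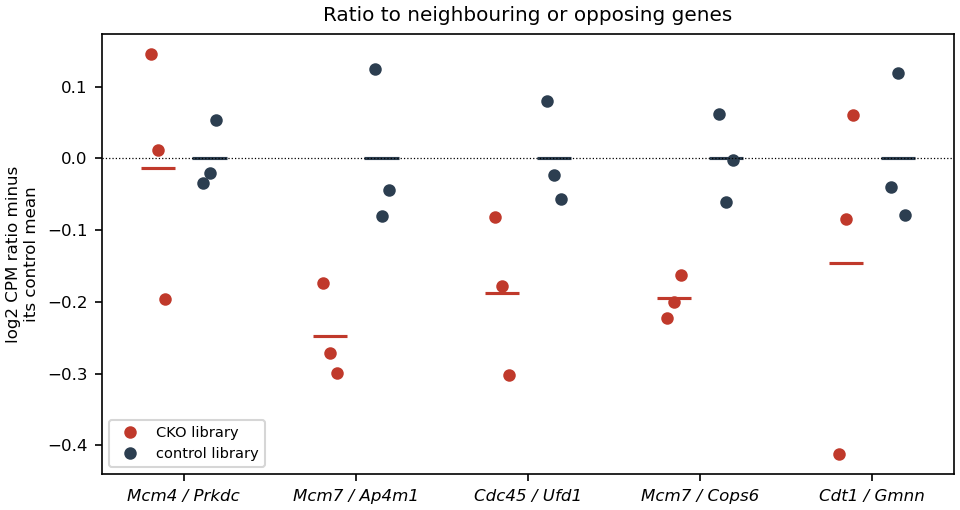
Log2 ratio of CPM between a member and a neighbouring gene, or between Cdt1 and the gene of its inhibitor, minus the mean ratio of the controls (vertical axis); points are libraries and bars group means (n = 3 each). The ratios of Mcm7 to Ap4m1, Cdc45 to Ufd1 and Mcm7 to Cops6 do not overlap between CKO and controls, and those of Mcm4 to Prkdc and Cdt1 to Gmnn do.

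Other genes of DNA replication and the cell cycle showed small differences that were mostly negative. Of 118 such genes in 6 lists, all of them tested, 104 had a negative log2 fold change, 10 were called lower and 1 was called higher, and their median log2 fold change was -0.10. Over all tested genes 49.1% had a negative value, 1.14% were called lower and 3.08% higher. Every CKO library lay below every control library in 53 of the 118 and above in 2, against 10.6% below and 11.5% above over all tested genes. The lists were also chosen with earlier results of these data known. The 10 called lower became 12 without CKO replicate 1, 19 without the library labelled CKO replicate 2 and 0 without CKO replicate 3. They became 2 without control replicate 1 or control replicate 2, 4 without control replicate 3, and 0 with either covariate. The calls lower over all genes in these fits are given above.

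Of 16 genes of origin recognition and licensing control, 3 were called lower and none higher, with a median log2 fold change of -0.15. They were Cdca5, which encodes the cohesion factor sororin (-0.42, SE 0.10, edgeR adjusted p = 0.0239), Fbxo5, whose product restrains the ubiquitin ligase that destroys geminin (-0.31, SE 0.08, edgeR adjusted p = 0.0372), and Dtl, which encodes the receptor that marks CDT1 for destruction in S phase (-0.23, SE 0.06, edgeR adjusted p = 0.0438). Cdca5 had 25.6, 22.1 and 24.1 CPM in CKO replicates 1, 2 and 3, against 29.8, 37.5 and 28.7 CPM in control replicates 1, 2 and 3. Cdca5 acts in sister chromatid cohesion and not in licensing.

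Of 15 genes of origin firing, Topbp1, a scaffold of helicase assembly, was called lower (-0.19, SE 0.05, edgeR adjusted p = 0.0372) and the list's median log2 fold change was -0.11. Of 28 polymerase and fork genes, 2 were called lower, and the list's median was -0.10. They were Rpa2, a subunit of the single-strand binding protein (-0.31, SE 0.06, edgeR adjusted p = 0.00743), and Lig1, the ligase that joins Okazaki fragments (-0.22, SE 0.05, edgeR adjusted p = 0.0134). Rpa2 had 57.8, 53.8 and 52.7 CPM in CKO replicates 1, 2 and 3, against 68.7, 71.3 and 64 CPM in control replicates 1, 2 and 3, without overlap.

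Of 9 deoxynucleotide supply genes none was called, all 9 had negative values and the median was -0.14. The ribonucleotide reductase genes Rrm1 and Rrm2 had log2 fold changes of -0.14 (edgeR adjusted p = 0.119) and -0.16 (edgeR adjusted p = 0.144). Of 20 mitosis genes, 3 were called lower and the median was -0.10. They were the spindle motor gene Kif11 (-0.23, edgeR adjusted p = 0.0113), Nusap1 (-0.24, edgeR adjusted p = 0.0145) and the checkpoint kinase gene Bub1b (-0.19, edgeR adjusted p = 0.0433).

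Of 30 E2F, RB and G1/S regulators, 1 was called higher and 1 lower, with a median log2 fold change of -0.10. Cdkn1a, the gene of the cyclin-dependent kinase inhibitor p21, had 55.2, 37.8 and 50.6 CPM in CKO replicates 1, 2 and 3, against 28.3, 29.2 and 24.8 CPM in control replicates 1, 2 and 3. All CKO libraries lay above all controls, with the library labelled CKO replicate 2 nearest to them (log2 fold change 0.80, SE 0.13, edgeR adjusted p = 0.00468), and the call was lost with the ribosomal RNA covariate (adjusted p = 0.309). Mycn, a growth-promoting transcription factor gene of the compact wall, had 35.3, 49.5 and 36.3 CPM in CKO replicates 1, 2 and 3, against 64.3, 61.5 and 57.9 CPM in control replicates 1, 2 and 3. Again the library labelled CKO replicate 2 lay nearest to the controls (log2 fold change -0.60, SE 0.12, edgeR adjusted p = 0.0206). The 10 helicase and licensing genes did not share this order. Their highest CKO value fell in CKO replicate 1 for 6 genes, in CKO replicate 2 for 2 and in CKO replicate 3 for 2. A relation to the Trim28 level was not tested.

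**Figure D5:**
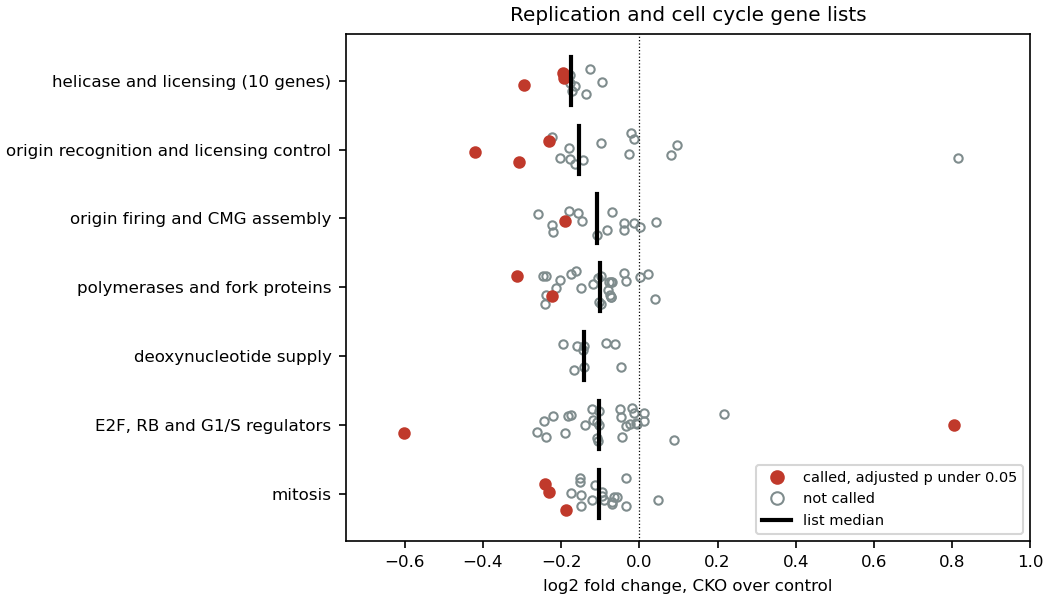
Log2 fold change, CKO over control (horizontal axis), of the 10 helicase and licensing genes and of 6 lists of replication and cell cycle genes (rows); filled points were called by edgeR at an adjusted p under 0.05, open points were not, and black bars are medians. The medians lie between -0.17 and -0.10, and 1 called gene, Cdkn1a, lies to the right of 0; the open point farthest right is Mcmdc2, at 0.474 CPM in CKO and 0.268 CPM in controls.

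Markers of several cell types differed between the groups, set against 3.08% of all tested genes called higher, 1.14% called lower, 11.5% above in every CKO library and 10.6% below. All 4 smooth muscle markers were higher in every CKO library than in every control and 3 were called higher, with sums of 2142 to 2602 CPM in CKO and 1509 to 1533 CPM in controls, as were 6 of 8 macrophage markers, of which 3 were called higher, with sums of 95.5 to 107 CPM in CKO and 76.5 to 79.2 CPM in controls. Of 7 endothelial and endocardial markers, 4 lay lower in every CKO library and 2 were called lower, with sums of 1076 to 1257 CPM in CKO and 1260 to 1347 CPM in controls. Of 10 erythroid markers, 2 lay lower in every CKO library and none was called. All 10 had negative log2 fold changes, with a median of -0.49. Their sums overlapped, at 1136 to 1267 CPM in CKO and 1256 to 2171 CPM in controls. Of 6 heart muscle markers, 3 had negative log2 fold changes and none was called lower. The lowest was Myh7 (-0.23, SE 0.07, edgeR adjusted p = 0.121). In 2 of the 6, every CKO library lay above every control. They were Myh6, the atrial-type myosin heavy chain gene, which was called higher (log2 fold change 0.33, SE 0.07, edgeR adjusted p = 0.00875), and Actn2, which was not called (0.19, SE 0.06, edgeR adjusted p = 0.066). Of 5 mesenchyme markers, Postn lay below every control in every CKO library and was called lower (-0.29, SE 0.07, edgeR adjusted p = 0.0174). Col1a1 lay above every control in every CKO library and was not called (0.28, SE 0.13, edgeR adjusted p = 0.375). Of 5 epicardial markers none was called, and Upk3b lay below every control in every CKO library (-0.12, SE 0.05, edgeR adjusted p = 0.265). These markers were named after their values were seen. Their part in the levels of the replication genes was not tested.

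The 5 genes outside the 10 whose levels followed those of Mcm2 to Mcm7 most closely over the 6 libraries, taken from 10618 genes averaging 3 or more on the log2 CPM scale, were Gtpbp1, Ssb, Isoc1, Tmpo and Aar2. Pearson's r with the mean standardised profile of the 6 subunit genes was 0.992, 0.992, 0.992, 0.989 and 0.986 in that order. These values are a description over 6 shared libraries of 2 groups. Within the CKO group, the lowest value fell in CKO replicate 1 for 3 genes, in CKO replicate 2 for 2 and in CKO replicate 3 for 5. Among the controls, 7 of the 10 genes were lowest in control replicate 3.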

How the data were processed

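The authors deposited a table of raw counts by gene symbol for the 6 libraries. The submitters' processing notes name mm10 as the genome build. The aligner, counting program, annotation and strand setting were not given in the sources used here. From the labels' protocols, 500 ng of total RNA entered each library. Altered symbols (2017) were restored through GENCODE M21, which also gave positions and exon lengths. Genes with low counts were removed (filterByExpr, minimum count 10, total 15), which left 17557. The test was edgeR 4.0.16 in R 4.3.3 with TMM factors and a robust quasi-likelihood fit of group alone, two-sided, with Benjamini-Hochberg adjustment over all tested genes and a call at an adjusted p under 0.05. SEs are the log2 fold change divided by the root of F. CPM used TMM-scaled library sizes. Alternatives included DESeq2 1.42.0 and limma-voom 3.58.1. In tests on simulated counts, false calls stayed near the nominal share when dispersions followed the mean trend and exceeded it when each gene had its own dispersion, so calls near the threshold may be liberal. The members and lists were chosen with earlier results of these data known. Genes named from a list were its called genes, up to 4, or the 2 with the smallest p where none was called. Neighbours were genes that overlap a member or start within 1000 bases on the other strand.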

Additional observations from a re-analysis of the deposited data

How the results depend on the processing

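All 10 genes kept a negative log2 fold change in the 17 alternatives that estimate it anew, and none was called higher in any of the 19 run. The count called lower, 3 in the reported fit, was 5 without scaling factors, 5 with DESeq2, 1 with the replicate number as a block, and 0 with the ribosomal RNA covariate, with the Y-linked covariate or at an adjusted p under 0.01. It ran from 0 to 5 over the 6 fits that left out 1 library. The count over all genes, 741 in the reported fit, was 1203 without a filter, 60 with the ribosomal RNA covariate, 334 with the Y-linked covariate and 298 at an adjusted p under 0.01, and ran from 309 to 1577 over the fits that left out 1 library. The ribosomal RNA share does not overlap between the groups, so it and the group are largely confounded in that fit. For the other alternatives the cause was not tested. Same-numbered CKO and control libraries did not deviate together (r over genes of -0.00223, 0.0167 and 0.00136 for replicates 1, 2 and 3), so the numbers were not taken to pair the samples. Cdc6 was called in 11, Mcm4 in 10, Mcm6 in 10, Mcm2 in 4 and Mcm7 in 4 of the 19, and the other 5 genes in none. Each of the 10 genes had 988 or more counts in every library. Depth and the number of libraries were not varied beyond leaving out 1 library.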
